A study of Mus musculus with 8 samples.

Results

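Collagen chain genes were taken as all genes whose platform symbol consists of Col, a number, the letter a and a number, with Col17a1 left out. This gave 41 genes among the 17097 genes measured, each read from its brightest probe set (highest mean of the 8 arrays) among those carrying 1 symbol. The cells were basal keratinocytes of the back skin of CD1 mice, an outbred laboratory stock, sorted as ITGA6-positive and CD34-negative, with 300 cells and 1 mouse per array. In the expanded group (EXPD4, 3 mice) a force had expanded the skin, which was taken at day 4. In the TPA group (2 mice) the skin had received 12-O-tetradecanoylphorbol-13-acetate, a phorbol ester known as an activator of protein kinase C. The control group (CTRL, 3 mice) was untreated. The age of the mice and the dose and duration of TPA are not given in the sources used here. Signals below are log2 values from RMA, and all differences are log2 differences ± SE. Signals of different genes come from different probes and are not set against each other.

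Collagens are trimers of alpha chains wound into a triple helix. Fibrillar chains form the fibres of the dermis, type IV chains form the sheet-like network of basement membranes, and type VII forms the anchoring fibrils that tie the epidermal basement membrane to the dermis. Most dermal collagen is made by fibroblasts, while basal keratinocytes make chains of types IV, VII, XVII and XVIII. Within type IV, chains assemble as fixed trimers, and the epidermal basement membrane holds both the common trimer of Col4a1 and Col4a2 products and the trimer of Col4a5 and Col4a6 products.

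The sorted cells carried the transcripts of their gate. Krt5, Krt14, Krt15, Itga6, Itgb4 and Trp63 were above the background limit on all 8 arrays, and Cd34 was under it on all 8. That limit was the 95th percentile, on each array, of 79 chemosensory receptor genes (olfactory, vomeronasal, trace amine), and lay at 6.37 to 6.55. Krt6a and Krt16, stress keratins that phorbol ester is known to induce, and Odc1, a classical TPA-induced gene, ran against the labels and were lowest in TPA arrays. Odc1 stood at 9.82, 9.70 and 9.99 in expanded arrays, 8.93 and 9.05 in TPA arrays and 11.33, 11.36 and 11.33 in control arrays. Every direction below follows the labels as given, and an exchange of the TPA and control labels would turn the comparison between those groups and swap the comparisons of expanded arrays with each, so that Col4a5 and Col4a6 would be lower in expanded than in control arrays. Control replicate 1 also stood apart in endothelial transcripts: Cdh5, an endothelial cadherin, was at 6.57, 8.39 and 8.42 in expanded arrays, 6.44 and 6.96 in TPA arrays and 9.73, 7.02 and 6.86 in control arrays. Of 10 endothelial markers, 5, 4 and 4 to 6 were above the limit on expanded, TPA and control arrays, with summed linear signals of 1044 to 1345, 897 to 972 and 987 to 2306. Of 10 fibroblast markers, 5, 5 and 4 to 6 were above it, with sums of 3840 to 4563, 2966 to 3175 and 3613 to 4569. Dcn, Thy1, Fbln1 and Vim were above the limit on all 8 arrays and Pdgfrb on 7, Twist2 on 1, and Pdgfra, Lum, Dpt and Mfap5 were under it on all 8. Control replicate 3 stood apart in 5 Schwann cell and melanocyte markers, with 4 above the limit against 2 on each other array. Their summed signal was 785 there and 385 to 570 elsewhere. For 6 immune markers the sums were 664 and 710 in control replicates 1 and 3 and 387 to 443 elsewhere.

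Of the 41 collagen genes, 15 were above the limit on all 8 arrays and 6 more on every array of at least 1 group. Another 4 were above it on some arrays, and 16 on none. By group, 19 were above it on every expanded array, 20 on both TPA arrays and 16 on every control array. The shares, 46.3%, 48.8% and 39.0%, lie below those of all genes, which were 59.4%, 59.3% and 58.2%. The limit divides a continuous range. Col27a1, just inside on all arrays, had 6.54, 6.49 and 6.78 in expanded arrays, 6.53 and 6.51 in TPA arrays and 6.72, 6.57 and 6.67 in control arrays, and Col15a1, just outside, had 6.54, 6.44 and 6.46 in expanded arrays, 6.33 and 6.49 in TPA arrays and 6.39, 6.38 and 6.47 in control arrays.

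Type IV held the largest differences from control among the collagen genes above the limit. Col4a5 and Col4a6, the chains of the second epidermal trimer, were lowest in control arrays, intermediate in expanded arrays and highest in TPA arrays. They lie head to head on the X chromosome, and their promoter windows are shown because both genes moved in the same order. The windows run from 250 bases before to 50 after the start site, on the gene's strand (RefSeq, GRCm38.p6). Capitals mark CCAAT and GGGCGG, found on either strand.

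Col4a5, chrX:141475169-141475468, plus strand: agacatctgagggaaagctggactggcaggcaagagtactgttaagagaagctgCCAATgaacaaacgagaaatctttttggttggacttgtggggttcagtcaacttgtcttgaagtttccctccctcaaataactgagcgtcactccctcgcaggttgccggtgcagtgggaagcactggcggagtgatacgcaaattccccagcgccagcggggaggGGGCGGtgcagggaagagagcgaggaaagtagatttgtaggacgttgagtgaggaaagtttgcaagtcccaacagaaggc
Col4a6, chrX:141474027-141474326, minus strand: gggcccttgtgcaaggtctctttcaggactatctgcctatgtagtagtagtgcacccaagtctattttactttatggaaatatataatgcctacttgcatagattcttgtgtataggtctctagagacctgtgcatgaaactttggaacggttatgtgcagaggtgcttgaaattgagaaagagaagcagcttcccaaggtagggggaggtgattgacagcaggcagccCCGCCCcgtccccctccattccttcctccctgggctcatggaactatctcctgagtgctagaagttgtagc

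The start sites lie 1343 bases apart and are transcribed away from each other, so the windows share no base. The motifs searched on both strands were the TATA box (TATAAA), the CCAAT box, the GC box (GGGCGG) and the AP-1 site (TGANTCA), and no match overlapped another here. The Col4a5 window held CCAAT at -196 and GGGCGG at -30, and the Col4a6 window held GGGCGG in reverse at -21 (first base, counted from the start site). Of all 32851 promoter windows, 37.4% held CCAAT, 35.7% GGGCGG, 13.6% TATAAA and 7.81% TGANTCA, and neither Col4a5 nor Col4a6 held the last 2 in this window. These matches describe letters and are not evidence of binding.

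Col4a6 signals were 8.14, 8.34 and 8.09 in expanded arrays, 9.63 and 9.47 in TPA arrays and 6.86, 6.39 and 6.61 in control arrays. The 3 groups did not overlap, and 2 of 3 control arrays were above the limit. Col4a6 was higher in expanded than in control arrays by 1.57 ± 0.13 (2.98-fold, adjusted p = 0.000163, limma with Benjamini-Hochberg over all genes). It was higher in TPA than in control arrays by 2.93 ± 0.14 (7.64-fold, adjusted p = 4.77e-06) and lower in expanded than in TPA arrays (-1.36 ± 0.14, adjusted p = 0.0015). Its control signals lay near the limit, so the size of both folds against control is uncertain. Col4a5, the chain affected in X-linked Alport syndrome in people, had 7.48, 8.06 and 7.23 in expanded arrays, 8.88 and 8.81 in TPA arrays and 6.85, 6.32 and 6.26 in control arrays. Here too the groups did not overlap, but only 1 of 3 control arrays was above the limit, so the size of its fold against control is uncertain. The differences were 1.11 ± 0.22, adjusted p = 0.0131 for expanded against control, 2.37 ± 0.25, adjusted p = 0.00025 for TPA against control and -1.25 ± 0.25, adjusted p = 0.0219 for expanded against TPA. Of the 41 collagen genes these 2 were called in all 3 comparisons, and both followed the order control, expanded, TPA from low to high. Over all genes 2.31% were called in all 3, and 0.842% were called with that order. Groups whose arrays did not overlap were common among all genes, at 30% between expanded and control, 45.8% between TPA and control and 35.7% between expanded and TPA. The comparisons of expanded and of TPA with control share their control arrays.

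A second probe set was called in the same direction for Col4a6. It differed by 1.55 ± 0.20 between expanded and control and by 2.83 ± 0.23 between TPA and control. That of Col4a5 lay under the limit on all 8 arrays, so no size can be given for it. The Col4a6 calls held without any single array. Col4a5 lost its call between expanded and control without control replicate 2 (adjusted p = 0.0541) or 3 (adjusted p = 0.0571). Between expanded and TPA it lost its call without either TPA array and without expanded replicate 1 or 3 (adjusted p up to 0.0612). That call was also lost with only those groups fitted (adjusted p = 0.0547).

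**Figure D1:**
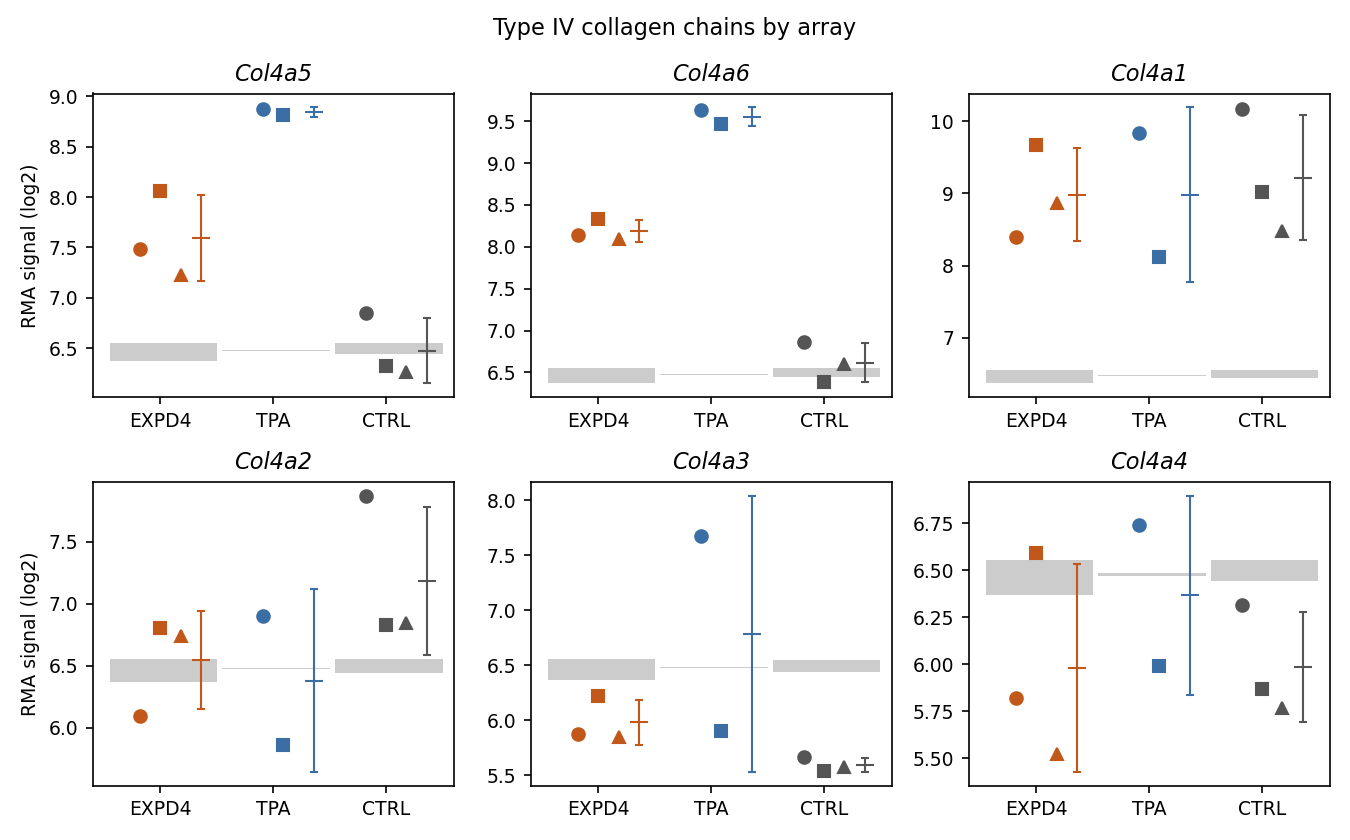
RMA signal (log2) of the 6 type IV collagen genes by group; circles, squares and triangles are replicates 1, 2 and 3, the tick with a bar is mean ± SD, and the grey band is the range of the background limit over the group's arrays. Col4a5 and Col4a6 separate the 3 groups, while in the other 4 genes TPA replicate 1 lies well above TPA replicate 2 and no comparison passed the test.

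The common pair behaved otherwise. Col4a1 and Col4a2, which encode the chains of the trimer found in all basement membranes, also lie head to head, on chromosome 8. Their start sites are 21 bases apart, and their windows, shown because the genes varied together between arrays, share 78 bases and have a GC content of 74.0% and 73.7%, against a median of 52.7% over all windows. Capitals again mark CCAAT and GGGCGG on either strand. The Col4a1 window held both in reverse, at -145 and 10. The Col4a2 window held CCAAT at -32 and GGGCGG at -192, 8 and, in reverse, -48. The match at 10 of Col4a1 and that at 8 of Col4a2 are the same bases, read on opposite strands. As annotated, each start site lies inside the other gene, so the ends where transcription begins overlap.

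Col4a1, chr8:11312777-11313076, minus strand: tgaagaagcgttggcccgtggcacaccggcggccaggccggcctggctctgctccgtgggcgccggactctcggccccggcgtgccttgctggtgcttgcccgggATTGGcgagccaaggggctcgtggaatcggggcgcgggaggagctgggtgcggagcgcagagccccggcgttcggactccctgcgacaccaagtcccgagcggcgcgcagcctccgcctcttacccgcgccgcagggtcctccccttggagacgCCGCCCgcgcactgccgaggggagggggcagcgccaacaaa
Col4a2, chr8:11312555-11312854, plus strand: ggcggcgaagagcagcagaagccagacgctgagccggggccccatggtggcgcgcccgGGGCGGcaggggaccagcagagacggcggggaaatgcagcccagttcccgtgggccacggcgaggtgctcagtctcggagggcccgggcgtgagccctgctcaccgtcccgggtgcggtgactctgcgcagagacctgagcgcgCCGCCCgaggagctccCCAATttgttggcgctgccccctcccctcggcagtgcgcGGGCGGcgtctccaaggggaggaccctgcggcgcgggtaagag

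Col4a1 signals were 8.40, 9.68 and 8.87 in expanded arrays, 9.84 and 8.12 in TPA arrays and 10.17, 9.01 and 8.47 in control arrays. The ranges of all 3 groups overlapped. The difference was -0.24 ± 0.55, adjusted p = 0.871 between expanded and control, with a 95% interval of -1.49 to 1.01, and -0.24 ± 0.61, adjusted p = 0.839 between TPA and control, with an interval of -1.64 to 1.16. These intervals are wide enough to include changes of 2-fold in either direction. Col4a2 had 6.09, 6.81 and 6.74 in expanded arrays, 6.90 and 5.86 in TPA arrays and 7.87, 6.83 and 6.85 in control arrays, above the limit on 2 of 3 expanded, 1 of 2 TPA and all 3 control arrays. Its expanded arrays all lay below the control arrays, by a narrow margin (6.81 against 6.83), while TPA arrays overlapped both other groups. It differed from control by -0.64 ± 0.35, adjusted p = 0.341 in expanded arrays and by -0.80 ± 0.40, adjusted p = 0.211 in TPA arrays. In both genes the highest array of each group was expanded replicate 2, TPA replicate 1 and control replicate 1.

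Col4a3 and Col4a4, whose products join that of Col4a5 in the basement membrane of the kidney glomerulus, were near or under the limit. Col4a3 was at 5.88, 6.22 and 5.85 in expanded arrays, 7.67 and 5.90 in TPA arrays and 5.66, 5.54 and 5.57 in control arrays, and was above the limit in TPA replicate 1 alone. Its control arrays were lowest, without overlap, but 7 of its 8 signals lay under the limit. Col4a4 was at 5.82, 6.59 and 5.52 in expanded arrays, 6.74 and 5.99 in TPA arrays and 6.32, 5.87 and 5.77 in control arrays, above it in expanded replicate 2 and TPA replicate 1. Neither passed the test in any comparison. All 6 type IV genes had their highest signal in expanded replicate 2, TPA replicate 1 and control replicate 1 of their groups, a pattern noticed after the values were seen. Col5a1 was the 1 other collagen gene with it, and 5.69% of all genes had it. The second probe set of Col4a1 also had it. Those of Col4a3, Col4a4, Col4a5 and Col4a6 did not, and all but the last lay under the limit throughout. Cdh5 was highest in the same control array, whereas in expanded arrays it was about equally high in replicates 2 and 3, and in TPA arrays it was higher in replicate 2. Their part in the type IV signals was not tested. In sorted bulk samples a different share of cells and a different RNA amount per cell cannot be told apart.

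**Figure D2:**
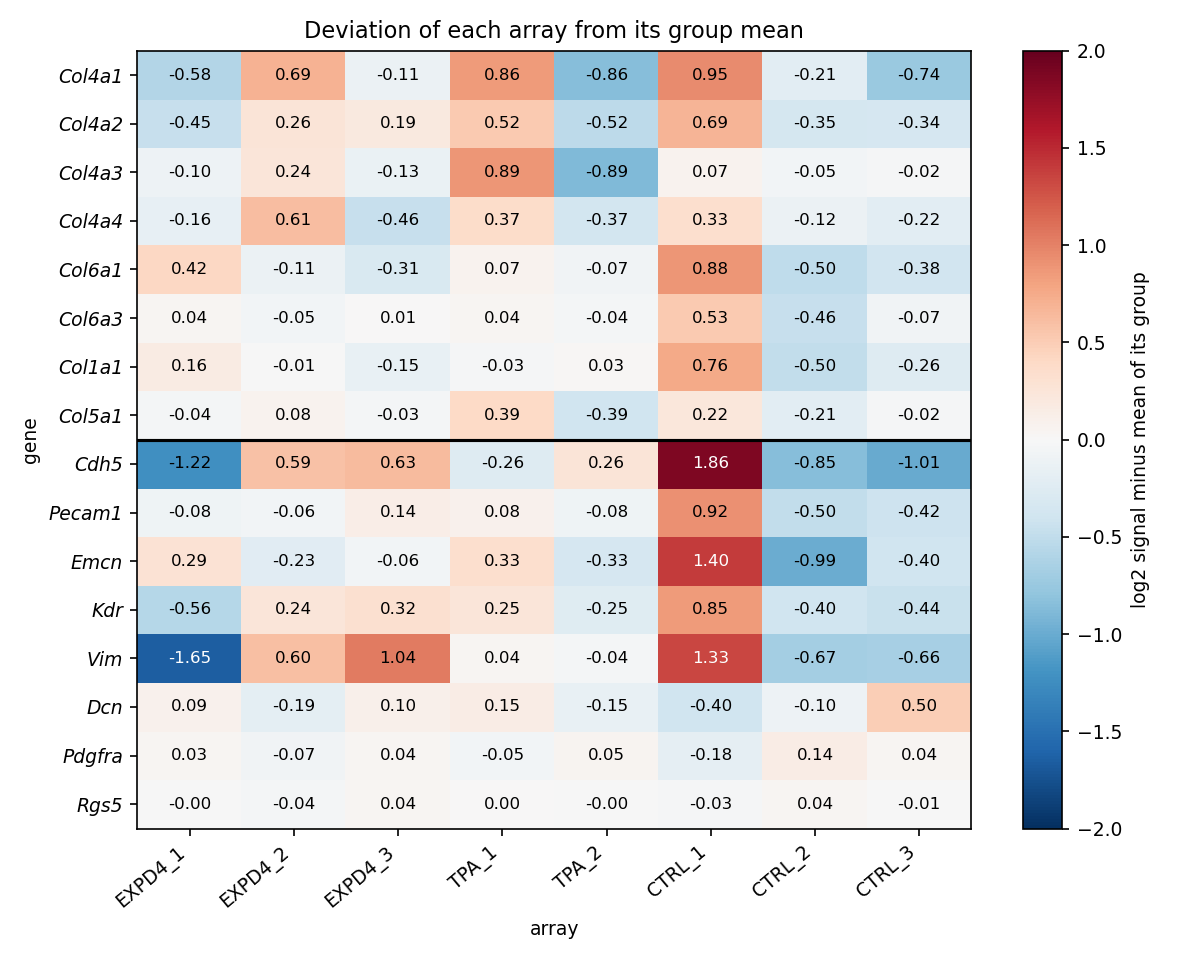
Log2 signal of each array minus the mean of its group, for 8 collagen genes (above the line) and 8 endothelial or stromal genes (below it); red is above and blue below the group mean. The collagen genes were chosen after their values were seen. The other genes are only some of the 10 endothelial, 10 fibroblast and 6 pericyte and smooth muscle markers measured. Control replicate 1 is above its group mean for the 8 collagen genes drawn and for Cdh5, Pecam1, Emcn, Kdr and Vim. It is below it for Dcn (-0.40), Pdgfra (-0.18) and Rgs5 (-0.03). Of the collagen genes not drawn, some lie below their group mean there (among them Col25a1, Col9a3, Col8a1 and Col5a2) and others above it. Col4a1 deviates by 0.69, 0.86 and 0.95 in expanded replicate 2, TPA replicate 1 and control replicate 1.

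Col7a1, the chain of the anchoring fibrils, was well above the limit on every array and differed little between groups. It stood at 10.92, 10.72 and 10.80 in expanded arrays, 11.31 and 11.30 in TPA arrays and 11.01, 11.06 and 11.05 in control arrays. The expanded arrays were lowest and the TPA arrays highest, with no overlap. It was lower in expanded than in TPA arrays (-0.50 ± 0.08, adjusted p = 0.0103) and higher in TPA than in control arrays (0.27 ± 0.08, adjusted p = 0.0453). Between expanded and control it did not pass (-0.23 ± 0.07, adjusted p = 0.0848, 95% interval -0.39 to -0.06), except with a trended robust prior (adjusted p = 0.0216). The rise in TPA arrays was lost without either TPA array. It was also lost without any control array or expanded replicate 3 (adjusted p up to 0.0938) and with the replicate block (adjusted p = 0.115). So it was with array weights (adjusted p = 0.0684) and with only those groups fitted (adjusted p = 0.0671). With each probe set as its own row it was just lost (adjusted p = 0.0504). The difference between expanded and TPA was lost without TPA replicate 1 (adjusted p = 0.0545).

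Col18a1 encodes the multiplexin of basement membranes from which endostatin is cut. It was at 10.77, 10.81 and 10.93 in expanded arrays, 10.83 and 10.98 in TPA arrays and 11.19, 11.17 and 11.08 in control arrays. Control arrays were highest, and neither other group overlapped them. It was lower in expanded than in control arrays (-0.31 ± 0.08, adjusted p = 0.0359), and for TPA against control the difference was -0.24 ± 0.09 (adjusted p = 0.088), which passed with a trended robust prior (adjusted p = 0.0307). Its other probe set differed by -0.40 ± 0.10 and -0.54 ± 0.11, and passed in both comparisons (adjusted p = 0.0357 and 0.00944). The fall in expanded arrays was lost without expanded replicate 1 or 2 or any control array (adjusted p up to 0.12), with quantile normalization (adjusted p = 0.0509) and with the replicate block (adjusted p = 0.0825). The related Col15a1 was near the limit and did not pass in any comparison.

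Among the FACIT collagens (fibril-associated collagens with interrupted triple helices), Col16a1 was higher in TPA arrays. It had 9.35, 9.54 and 9.21 in expanded arrays, 9.39 and 9.76 in TPA arrays and 9.07, 8.97 and 8.92 in control arrays. Both other groups lay above the control range. The difference from control was 0.59 ± 0.13, adjusted p = 0.0139 in TPA arrays and 0.38 ± 0.12, adjusted p = 0.0799 in expanded arrays, where it did not pass. The TPA call was lost without TPA replicate 2 (adjusted p = 0.0917). For expanded against control it did pass without either TPA array, with only those groups fitted (adjusted p = 0.0454) or with array weights (adjusted p = 0.043). Col19a1 was above the limit in the TPA arrays alone, with 6.16, 5.80 and 6.36 in expanded arrays, 6.94 and 6.63 in TPA arrays and 5.65, 6.15 and 5.97 in control arrays. It was higher in TPA than in control arrays by at least 0.27, counted from the background limit (adjusted p = 0.0129), a call lost without TPA replicate 1 (adjusted p = 0.0913). Its 2 other probe sets lay under the limit on all 8 arrays and did not pass. Col12a1, known from tissues under tension, was at 8.35, 8.32 and 8.42 in expanded arrays, 8.38 and 8.39 in TPA arrays and 8.58, 8.41 and 8.33 in control arrays. Its arrays overlapped between all groups, and the difference between expanded and control was -0.08 ± 0.08, with a 95% interval of -0.26 to 0.11. Col9a3, a cartilage chain, stayed near the limit, with 6.78, 6.90 and 6.66 in expanded arrays, 6.60 and 6.67 in TPA arrays and 6.50, 6.86 and 6.77 in control arrays. Its groups overlapped, and it did not pass in any comparison.

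Of the collagens that span the cell membrane, Col23a1 was lower in TPA arrays. It had 7.89, 8.03 and 7.76 in expanded arrays, 6.88 and 7.41 in TPA arrays and 8.03, 8.07 and 7.79 in control arrays. The TPA arrays lay below every other array. The difference was -0.82 ± 0.16, adjusted p = 0.00745 for TPA against control and 0.75 ± 0.16, adjusted p = 0.0321 for expanded against TPA, and -0.07 ± 0.14 for expanded against control, which did not pass (adjusted p = 0.853). Of its 2 other probe sets, 1 fell in TPA arrays (-1.06 ± 0.26) and 1 did not pass (-0.12 ± 0.17). The call between expanded and TPA was lost without TPA replicate 1. It was also lost without any expanded array or control replicate 1 or 2 (adjusted p up to 0.0916). So it was with only those groups fitted (adjusted p = 0.0878). Without TPA replicate 1 the fall against control was -0.55. Col25a1, a neuronal membrane collagen, was near the limit, with 6.56, 6.60 and 6.66 in expanded arrays, 6.53 and 6.80 in TPA arrays and 6.26, 6.78 and 6.64 in control arrays. It did not pass in any comparison, and Col13a1 was under the limit throughout.

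Type VI collagen, which forms beaded filaments around cells, needs the products of Col6a1, Col6a2 and another chain, classically that of Col6a3. Col6a1 was at 7.64, 7.10 and 6.91 in expanded arrays, 9.49 and 9.35 in TPA arrays and 9.01, 7.63 and 7.75 in control arrays. Both TPA arrays lay above all others, and control replicate 1 stood nearer to them than to the other control arrays. Col6a1 was higher in TPA than in control arrays (1.29 ± 0.38, adjusted p = 0.0452) and lower in expanded than in TPA arrays (-2.20 ± 0.38, adjusted p = 0.0138). Between expanded and control it did not pass (-0.91 ± 0.34, adjusted p = 0.142) except with the replicate block (adjusted p = 0.0453). Without control replicate 1 the TPA difference was 1.73 (adjusted p = 0.00186). It was lost without either TPA array, control replicate 2 or 3 or expanded replicate 2 or 3 (adjusted p up to 0.173), and the difference between expanded and TPA was lost without TPA replicate 1 (adjusted p = 0.0742).

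Col6a2 went the other way. It was at 7.32, 7.37 and 7.07 in expanded arrays, 7.13 and 7.18 in TPA arrays and 7.58, 7.45 and 7.74 in control arrays, and the control arrays did not overlap the others. TPA arrays were lower (-0.43 ± 0.12, adjusted p = 0.0314), a call lost without either TPA array. That call was also lost without control replicate 1 or 3 (adjusted p up to 0.0905). So it was with the replicate block (adjusted p = 0.0855) and with array weights (adjusted p = 0.0754). Expanded arrays differed by -0.34 ± 0.11 (adjusted p = 0.0797), and its second probe set, above the limit on 2 control arrays alone, was lower in both comparisons by at least 0.30 and 0.29 (adjusted p = 0.0452 and 0.0437). Col6a3 was under the limit on all 8 arrays and highest in control replicate 1 (5.92), and Col6a4 and Col6a5 were under it too. Beside Col6a1, the fibroblast marker Dcn, which encodes decorin, was also highest in TPA arrays, with 7.64, 7.36 and 7.66 in expanded arrays, 8.84 and 8.54 in TPA arrays and 6.60, 6.90 and 7.50 in control arrays. Its difference from control was 1.69 ± 0.23, adjusted p = 0.00117 in TPA arrays, and Thy1 was higher too (1.33 ± 0.14, adjusted p = 0.00031). Fbln1 went the other way (-1.17 ± 0.12, adjusted p = 0.000239), Vim did not pass (-2.01 ± 0.82, adjusted p = 0.13), and the summed fibroblast signal was lowest in TPA arrays. The part of these markers in the Col6a1 signal was not tested.

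The fibrillar chains passed in no comparison apart from Col5a3. Col1a1, a chain of type I collagen, was at 6.93, 6.76 and 6.62 in expanded arrays, 6.65 and 6.71 in TPA arrays and 8.12, 6.87 and 7.10 in control arrays. It was highest in control replicate 1, and the groups of expanded and TPA arrays overlapped. It differed from control by -0.60 ± 0.28, adjusted p = 0.245 in expanded arrays and by -0.68 ± 0.31, adjusted p = 0.174 in TPA arrays. Col1a2, its partner, and the probe sets of Col11a1, Col11a2 and Col24a1 were under the limit on all 8 arrays, and Col3a1 was above it on 1 array of each group. Col5a1 and Col5a2, chains of the type V collagen that sets fibril width, were above the limit on all 8 arrays. Col5a2 had 8.27, 8.42 and 8.06 in expanded arrays, 8.26 and 8.58 in TPA arrays and 8.15, 8.17 and 8.37 in control arrays, and its groups overlapped throughout, with a difference of 0.02 ± 0.12 between expanded and control (95% interval -0.26 to 0.30). Col5a1 was at 7.41, 7.53 and 7.42 in expanded arrays, 8.12 and 7.34 in TPA arrays and 7.96, 7.53 and 7.72 in control arrays, and differed by -0.28 ± 0.19 between expanded and control (adjusted p = 0.447). Col5a3 was called lower in expanded (adjusted p = 0.00544) and TPA arrays (adjusted p = 0.00138) than in control arrays, but all 8 of its signals lay under the limit, so no size can be given. Its second probe set did not pass.

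Col2a1, the main chain of cartilage fibrils, split the control arrays. It was at 6.92, 7.02 and 7.04 in expanded arrays, 6.90 and 7.04 in TPA arrays and 8.31, 6.99 and 8.41 in control arrays. The expanded and TPA arrays lay close together, beside control replicate 2, while control replicates 1 and 3 were well above them. It did not pass in any comparison with all arrays. Without control replicate 2 it was lower in expanded (-1.37, adjusted p = 0.000403) and TPA arrays (-1.39, adjusted p = 0.000137). Lyz2, a myeloid transcript, had the same split in control arrays, with 5.25, 5.38 and 5.19 in expanded arrays, 5.20 and 5.07 in TPA arrays and 8.25, 5.36 and 7.12 in control arrays, and its part was not tested.

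Col8a1 and Col10a1, short chains that form lattices, were above the limit on all 8 arrays and did not pass in any comparison. Col8a1 had 7.99, 7.93 and 7.72 in expanded arrays, 7.93 and 8.21 in TPA arrays and 7.63, 7.86 and 7.81 in control arrays, a difference of 0.30 ± 0.12 between TPA and control (adjusted p = 0.132). With the mean of its 3 probe sets this passed (0.43, adjusted p = 0.00879), but the 2 other probe sets lay under the limit on all 8 arrays. Col10a1, known from hypertrophic cartilage, had 6.87, 6.97 and 6.94 in expanded arrays, 6.98 and 7.18 in TPA arrays and 6.86, 6.95 and 7.00 in control arrays, and its difference between TPA and control was 0.14 ± 0.09, with a 95% interval of -0.06 to 0.34. The remaining genes under the limit on every array were Col8a2, Col9a1, Col9a2, Col14a1, Col20a1, Col22a1 and Col26a1, and none of them passed in any comparison. Over all 16 genes never above the limit, signals lay between 4.44 and 6.48.

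**Figure D3:**
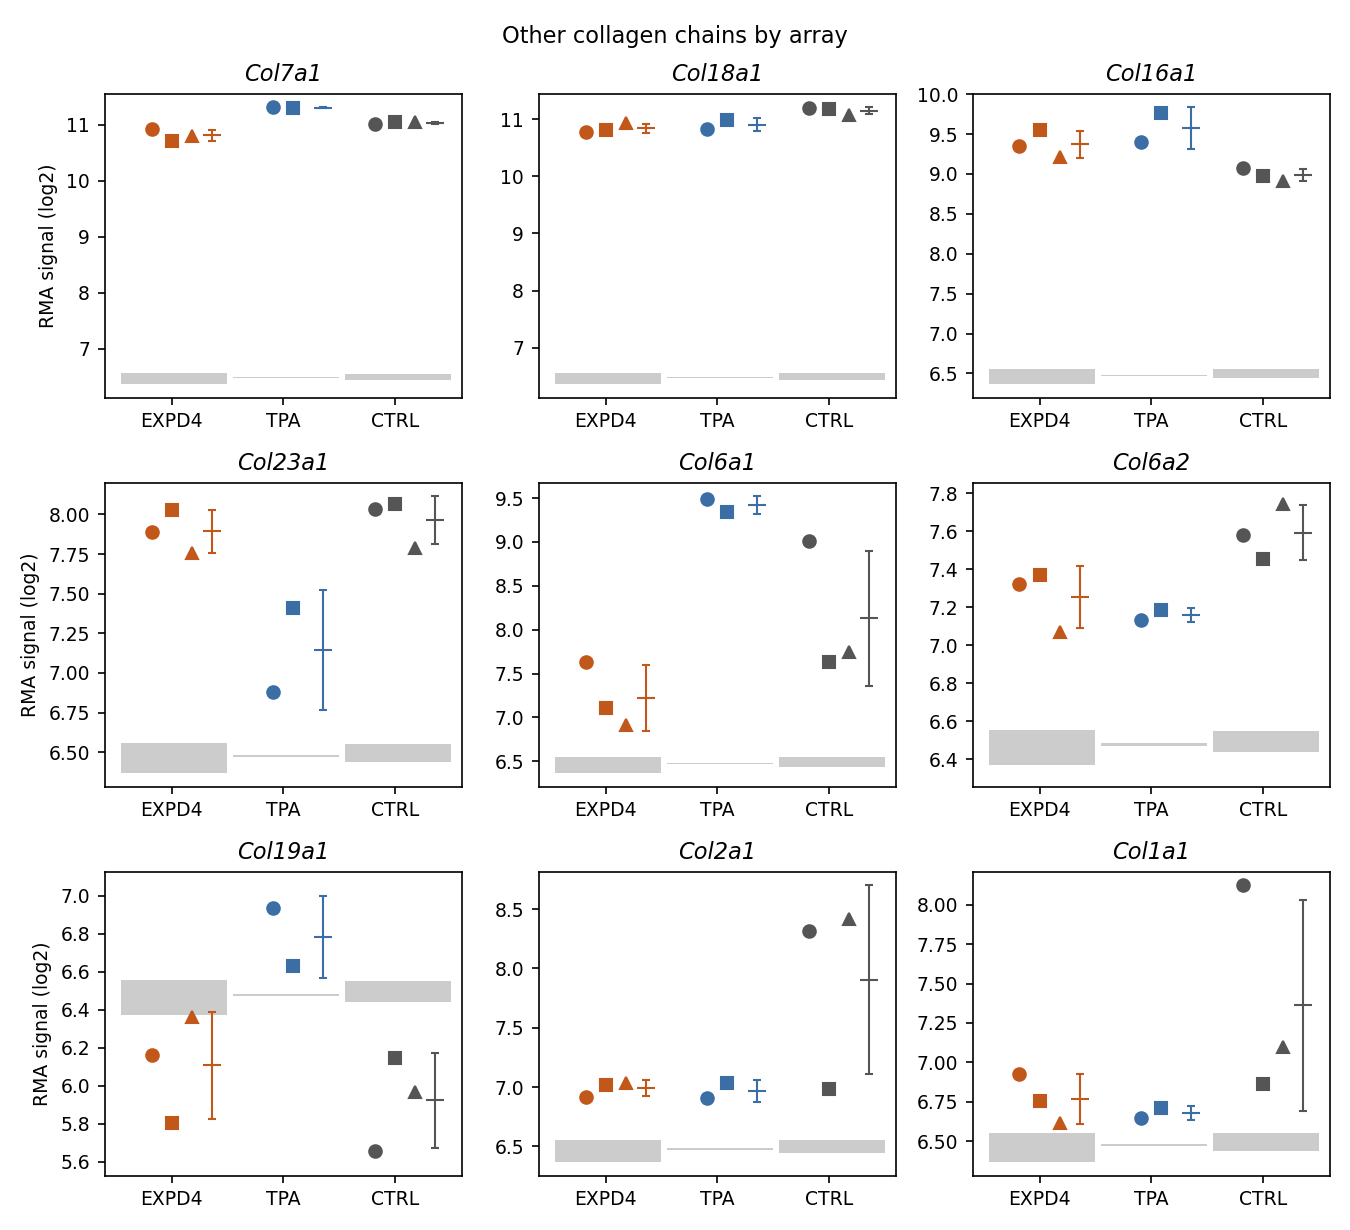
RMA signal (log2) by group of 9 collagen genes of other types, drawn as replicates 1 to 3 (circle, square, triangle) with mean ± SD; the grey band is the range of the background limit and each panel has its own scale. Col6a1 and Col19a1 are highest in TPA arrays and Col23a1 lowest, and among control arrays Col1a1 is highest in replicate 1 and Col2a1 in replicates 1 and 3.

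Between expanded and control arrays 4 of 41 collagen genes were called (9.76%), 2 higher and 2 lower, where 11.5% of all genes were called, 5.69% higher and 5.78% lower. Between TPA and control 9 were called (22.0%), 6 higher and 3 lower, where 20.8% of all genes were called, 10.2% higher and 10.6% lower. Between expanded and TPA 5 were called (12.2%), 1 higher and 4 lower in expanded arrays, where 5.98% of all genes were called, 3.16% higher and 2.81% lower. The first 2 shares were near those of all genes. The median difference over the 41 genes was -0.01, -0.05 and 0.01 in these comparisons, and over all genes 0.01, -0.03 and 0.03. Several counts turned on 1 array, but shares of all genes called in the same fits are not given here. Whether collagen genes lost calls more readily than other genes was not tested. Without control replicate 3 the first count was 2, without TPA replicate 1 the second was 5 and the third 1, without TPA replicate 2 or control replicate 3 the second was 6, and without expanded replicate 1 or 3 the third was 3.

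**Figure D4:**
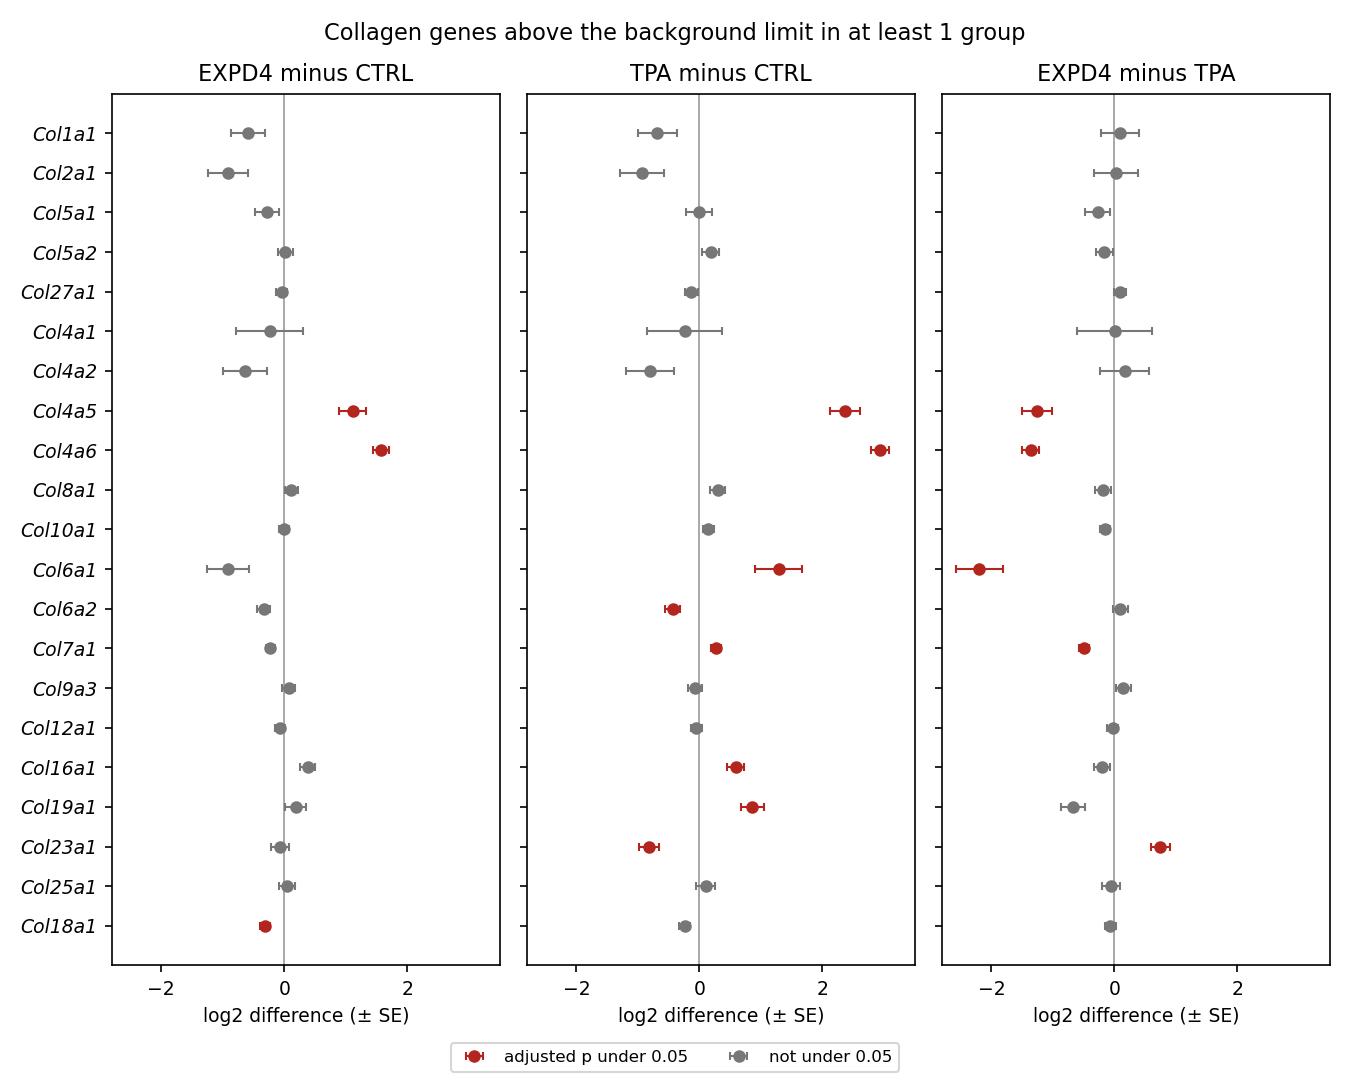
Log2 differences ± SE of the 21 collagen genes above the background limit on every array of at least 1 group, for each comparison; red points have an adjusted p under 0.05. Col4a5 and Col4a6 are the 2 genes in red in all 3 panels.

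The array carried 67 probe sets for these genes, and 21 genes had more than 1. Of the called genes, Col7a1, Col16a1 and Col6a1 had 1 probe set each and cannot be checked in this way. No second probe set of a called gene passed in the opposite direction. The second probe sets of Col4a6, Col18a1 and Col6a2 passed wherever the first did, as did that of Col4a5, which lay under the limit throughout, those of Col5a3 and Col19a1 never did, and of the 2 others of Col23a1, 1 passed between TPA and control and neither between expanded and TPA.

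**Figure D5:**
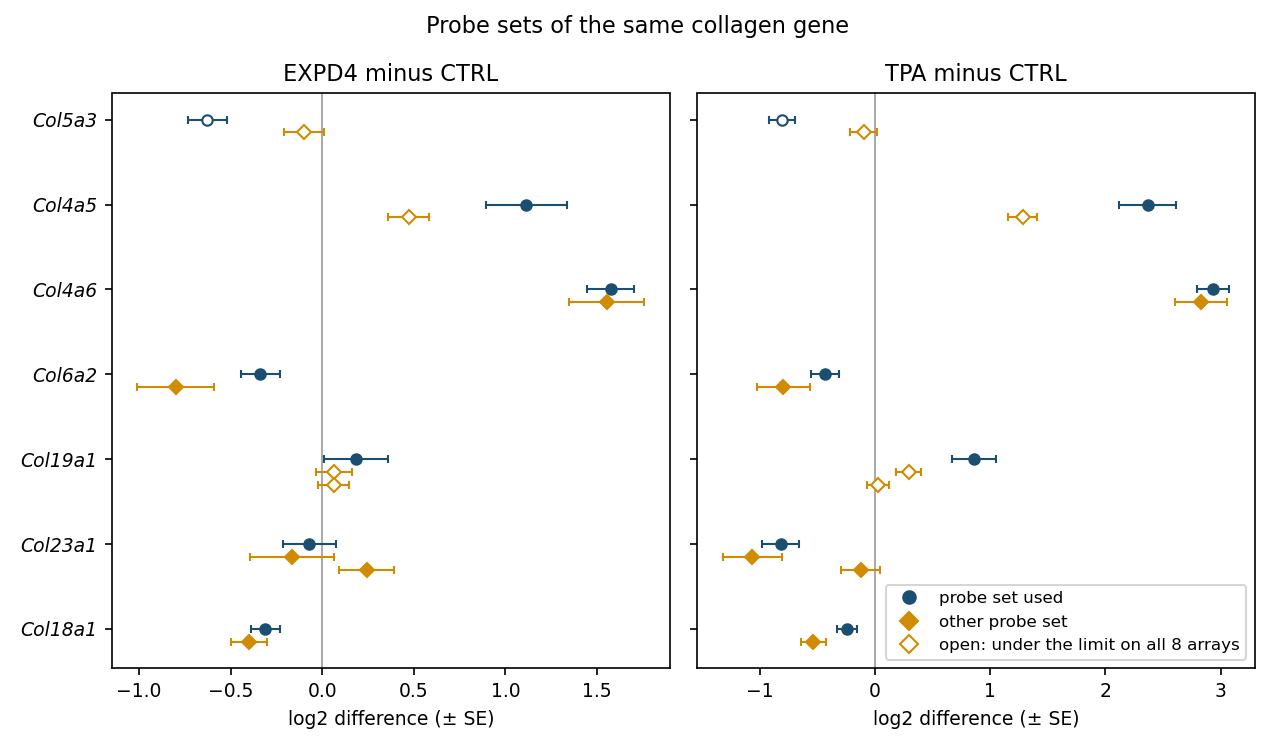
Log2 differences ± SE of each probe set (circle, the one used; diamond, others) for the 7 called collagen genes with several probe sets, with open symbols for probe sets under the background limit on all 8 arrays. The 2 probe sets of Col4a6 lie at 1.57 and 1.55 between expanded and control, while those of Col5a3 lie apart.

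Genes that act on or with collagens were read from lists of known roles. For comparison, 5.69% of all genes were called higher and 5.78% lower in expanded than in control arrays. In TPA against control arrays the shares were 10.2% and 10.6%, and in expanded against TPA arrays 3.16% and 2.81%. The medians over all genes were 0.01, -0.03 and 0.03. Of 14 measured partners in the basement membrane, 3 were higher and 4 lower in expanded than in control arrays, and 4 were higher and 4 lower in TPA arrays, with medians of 0.04 and -0.11. Fras1, a matrix protein of the epidermal basement membrane, was higher in expanded (1.64 ± 0.13) and TPA arrays (2.37 ± 0.14), and so was its partner Frem2, under the limit on all control arrays (by at least 0.35 and 1.33). Fras1, Frem2 and the laminin chain Lamb2 (0.38 ± 0.10 and 0.83 ± 0.11) were also called lower in expanded than in TPA arrays, as Col4a5 and Col4a6 were. So were Ddr1 and Mmp2 of the lists below, so this order was not particular to the basement membrane partners. The expanded calls of Frem2 were lost without expanded replicate 1 or 2 or control replicate 2 or 3 (adjusted p up to 0.105), and those of Lamb2 without any expanded or control array (adjusted p up to 0.125). Against TPA, Fras1 lost its call without expanded replicate 2 or 3 or TPA replicate 2 (adjusted p up to 0.0963), Frem2 without any of 5 arrays, and Lamb2 without any of 7. Lama3 (-0.92 ± 0.08 and -1.30 ± 0.09) and Lamb3 (-0.96 ± 0.07 and -1.25 ± 0.08), chains of the laminin that binds the basal cell to its basement membrane, were lower in both, and so was the perlecan gene Hspg2 (-0.69 ± 0.09 and -0.64 ± 0.10).

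Among 9 measured collagen receptors 1 was higher and 3 lower in expanded arrays, and 2 higher and 4 lower in TPA arrays, with medians of -0.19 and -0.32. The integrin subunits Itgb1 (-0.88 ± 0.07 and -1.25 ± 0.08) and Itga2 (-1.57 ± 0.23 and -1.27 ± 0.25), which pair as a collagen receptor of keratinocytes, were lower in expanded and TPA arrays. The Itga2 call in TPA arrays was lost without TPA replicate 2 (adjusted p = 0.0533). Ddr1, a receptor tyrosine kinase for collagen, was higher (0.65 ± 0.07 and 1.07 ± 0.08). It was lower in expanded than in TPA arrays (-0.42 ± 0.08, adjusted p = 0.0167). That call was lost without expanded replicate 2 or 3 or TPA replicate 2. Mrc2 was lower in expanded (-0.43 ± 0.10) and TPA arrays (-0.41 ± 0.11). Both calls were lost without control replicate 1 or 2, among other arrays. Itga10, under the limit on all 8 arrays, was called higher in TPA than in control arrays (adjusted p = 0.00914). It lost that call without TPA replicate 1.

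Of 12 measured collagen-cleaving proteases and inhibitors 1 was higher and 6 lower in expanded arrays, and 2 were higher and 6 lower in TPA arrays, with medians of -0.26 in both. Mmp2, a gelatinase that also cleaves type IV collagen, was higher in expanded (1.25 ± 0.12, adjusted p = 0.000501) and TPA arrays (2.04 ± 0.14, adjusted p = 2.66e-05). It was lower in expanded than in TPA arrays (-0.79 ± 0.14, adjusted p = 0.0142), a call lost without either TPA array. Mmp1b, under the limit in both, was lower than in control by at least 0.83 and 0.82 (adjusted p = 5.82e-05 and 1.49e-05). Mmp9, the other gelatinase, was lower in expanded (-4.19 ± 0.46, adjusted p = 0.000823) and TPA arrays (-5.60 ± 0.52, adjusted p = 0.000133). Timp1, an inhibitor of these enzymes, was lower in expanded arrays (-3.09 ± 0.26, adjusted p = 0.000218) and, under the limit in TPA arrays, lower there by at least 3.55 (adjusted p = 3.59e-05). Timp3, another inhibitor, was higher in TPA than in control arrays (3.16 ± 0.32, adjusted p = 0.000233) and lower in expanded than in TPA arrays (-2.34 ± 0.32, adjusted p = 0.00528). Of 27 measured genes for chain modification and processing 2 were higher and 6 lower in expanded arrays, and 1 was higher and 8 lower in TPA arrays, with medians of -0.13 and -0.11. Tll1, a procollagen C-proteinase, was lower in expanded (-2.28 ± 0.21) and TPA arrays (-2.54 ± 0.23), and Plod2, a lysyl hydroxylase, as well (-1.13 ± 0.21 and -1.47 ± 0.23). P4hb, the protein disulfide isomerase that is also a prolyl hydroxylase subunit, was also lower (-0.34 ± 0.06 and -0.63 ± 0.07). Colgalt1 was the 1 processing gene called higher in TPA arrays (0.56 ± 0.11, adjusted p = 0.00598). Its rise in expanded arrays (0.44 ± 0.10, adjusted p = 0.0198) was lost without expanded replicate 1 or 3 or any control array. Serpinh1 was lower in expanded than in control arrays (-0.28 ± 0.06, adjusted p = 0.0267), lost without any expanded or control array. Against TPA it was also lower (-0.47 ± 0.07, adjusted p = 0.00833), lost without TPA replicate 1. P4ha3, a subunit of prolyl hydroxylase, was lower in TPA than in control arrays (-1.09 ± 0.17, adjusted p = 0.00241) and higher in expanded than in TPA arrays (1.77 ± 0.17, adjusted p = 0.00123). It was also higher in expanded than in control arrays (0.68 ± 0.16, adjusted p = 0.0239), a call lost without expanded replicate 1 or 3 or any control array (adjusted p up to 0.0828). P3h2 was lower in expanded than in TPA arrays (-0.54 ± 0.12, adjusted p = 0.0367). It lost this call without expanded replicate 1 or 2, either TPA array or control replicate 2. Against TPA, expanded arrays had 2 higher and 2 lower of the processing genes, and 1 and 1 of the receptors. They had 0 and 2 of the proteases and inhibitors and 1 and 3 of the basement membrane partners. The medians, in this order, were 0.01, 0.01, 0.01 and 0.09.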

How the data were processed

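Gene expression was measured on 8 Affymetrix arrays, 3 expanded, 2 TPA and 3 control. The deposited values are log2 signals made by RMA, per the submitters' processing notes, which give no version, and RMA equalizes arrays and compresses differences at low and high signal. RNA of 300 sorted cells was amplified for 25 cycles, per the labels' protocols. Of 45141 probe sets, 28898 carried 1 gene symbol in the platform annotation. Differences were tested by linear models across all 8 arrays (limma 3.58.1, R 4.3.3, 5 residual and 3.54 prior degrees of freedom), adjusted by Benjamini-Hochberg over 17097 genes, at 0.05, and the fit was tested on simulated data. A bound counts from the limit when a group lay under it. Named genes are the members above the limit in a whole group, those called, and genes of the lists. From each list of genes that act on or with collagens, up to 4 called genes with the smallest p in each comparison are named. Exceptions, chosen after their values were seen, are Cdh5, Dcn, Thy1, Fbln1, Vim, Lyz2 and members named near the limit. Pecam1, Emcn, Kdr, Pdgfra and Rgs5, drawn with the deviations of each array, also fall outside this rule. The members and lists were chosen with earlier results of these data known. P4ha1, Adamts2, Adamts14, Itga11, Timp4, Lama4, Lama5, Nid2 and Frem3 were not analysed here. The precision rests on the number of arrays.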

Additional observations from a re-analysis of the deposited data

How the results depend on the processing

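Col4a6 kept its direction and its call in all 3 comparisons under each of the 17 alternatives, and no call of a collagen gene turned its direction under any of them. Fits without 1 array called 2 to 5 collagen genes between expanded and control, 5 to 10 between TPA and control and 1 to 5 between expanded and TPA. With only the 2 groups compared, the last count was 3, where the estimate of spread rests on fewer arrays. With the replicate number as a block, 4, 7 and 4 genes were called, and Col18a1 (adjusted p = 0.0825), Col6a2, Col7a1 and Col4a5 between expanded and TPA (adjusted p = 0.0564) lost their calls. Col6a1 gained a call between expanded and control under the block. Replicate numbers mark different mice. Residuals of same-numbered arrays correlated at r = -0.18 to 0.03 and those of others at -0.15 to 0.12. Residuals from means of so few arrays are tied to each other, and those of the TPA arrays are mirror images. These correlations therefore cannot tell whether arrays of the same number were handled together. Quantile normalization called 3, 9 and 5. None of these counts is set against the share of all genes called under the same setting. They therefore do not show whether the calls of collagen genes are less stable than those of other genes. Averaging all probe sets of a gene left 12 collagen genes in place of 19 above the limit on every expanded array, since dim probe sets then count. With the limit at the second highest receptor gene, 14, 15 and 13 were above it in expanded, TPA and control arrays, and at the 90th percentile 21, 21 and 20. Signals near the limit cannot show small changes.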
